A study of Homo sapiens with 6 samples.

Results

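Of the Krüppel-like factor (KLF) genes, 10 were examined: KLF2, KLF3, KLF4, KLF5, KLF6, KLF7, KLF9, KLF10, KLF11 and KLF13, out of 60663 genes with values in the deposited count table. The genes were chosen by name, with earlier results of these data known. They were divided into 5 that growth factors and other acute stimuli are known to induce (KLF2, KLF4, KLF6, KLF10 and KLF11) and the 5 others. RNA was sequenced from 5637, an established human bladder cancer line grown in RPMI1640. Each library came from cells 48 h after transfection. Per the series description, both groups received dCas13b-FTO, an RNA-guided Cas13b without nuclease activity fused with the RNA demethylase FTO, which acts on N6-methyladenosine. The groups differed in the guide: 3 libraries had a control guide (titles dCas13b+control) and 3 had a guide against HRAS (titles dCas13b+gRNA). The titles name dCas13b without FTO, while the column names of the table name FTO. Both groups carry the fusion, so cells without it were not compared here. Whether the 3 libraries of a guide are separate cultures is not stated in the labels. The p-values then measure only how far these libraries spread, which may be technical.

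KLF proteins are transcription factors that bind GC-rich and CACCC-containing promoter elements through zinc fingers at the C-terminus. Members differ in the N-terminal part, which recruits either coactivators such as EP300 or corepressors such as CtBP and SIN3A. In epithelia KLF5 is known for promoting proliferation and KLF4 for promoting differentiation and barrier genes. KLF2, KLF4, KLF6 and KLF10 are also known as early genes, whose mRNAs are short-lived and rise within hours of serum, growth factors, shear stress or TGF-beta.

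Library totals ran from 24968702 to 32283370 counts. All 10 markers of epithelial and basal urothelial cells were expressed and tested, with summed levels of 7667 to 9727 CPM (counts scaled to the size of each library) in the control libraries and 7739 to 8684 CPM in the HRAS guide libraries. The 5 immune markers together reached at most 0.725 CPM. The 5 endothelial markers summed to 3.87 to 4.93 CPM with the control guide and 3.76 to 4.24 CPM with the HRAS guide, most of it VWF (2.74 to 4.02 CPM), with CDH5 and TEK too low to be tested. The 5 fibroblast and muscle markers summed to 154 to 211 and 141 to 186 CPM, nearly all of it COL1A1. PDGFRB of that list was higher in all HRAS guide libraries (1.16 to 1.69 CPM against 0.906 to 1.07 CPM), as were 955 of 19836 genes tested. It did not pass the test, and its part in the results was not tested. COL1A1 overlapped between the groups, with a log2 fold change of -0.09 ± 0.14 (SE). COL1A2, COL3A1 and DES were too low to be tested. The control and HRAS guide means were 0.214 and 0.051 CPM for COL1A2, and 0.752 and 0.041 CPM for COL3A1. HRAS stood at 146, 230.4 and 169 CPM with the control guide, and 199.9, 167 and 184 CPM with the HRAS guide, a log2 fold change of 0.01 ± 0.15 (SE). FTO stood at 36.1, 32.1 and 38.1 CPM against 30.9, 31.1 and 31.4 CPM, with all HRAS guide libraries below all control libraries. The libraries differed along GC content within both groups: Spearman's rho across 14007 genes between GC content and a library's deviation from the mean was -0.62, 0.76 and -0.33 in control replicates 1 to 3 and 0.42, -0.67 and 0.11 in HRAS guide replicates 1 to 3. Values that touch the KLF genes are therefore also given after removal of each library's trend with GC content and transcript length.

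KLF5 was the most abundant of the 10 mRNAs per exon length and KLF10 came next. In the control libraries KLF5 reached 109.7 ± 18.6 CPM per kb of merged exons (SD, n = 3) and KLF10 57.0 ± 8.09 CPM per kb. KLF6, at 24.1 ± 3.50 CPM per kb, and KLF3, at 23.0 ± 4.30 CPM per kb, followed, and the ranges of these neighbours overlapped. KLF4 (8.54 ± 0.284), KLF7 (7.73 ± 1.50), KLF9 (7.51 ± 1.24) and KLF2 (5.96 ± 0.621 CPM per kb) each overlapped the next gene in that order, the last of them KLF13 (5.46 ± 0.140 CPM per kb). KLF11 was lowest, at 4.38 ± 0.556 CPM per kb, and did not overlap KLF13. With the HRAS guide KLF10 stood at 39.4 ± 2.85 CPM per kb, still below KLF5 (105 ± 8.24) and above KLF3 (21.8 ± 1.72) and KLF6 (18.1 ± 1.60). Of the other KLF genes, KLF16, KLF12, KLF8 and KLF15 were tested, KLF1 had 9 and KLF14 had 50 counts in all libraries together, and KLF17 and KLF18 had 0.

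**Figure D1:**
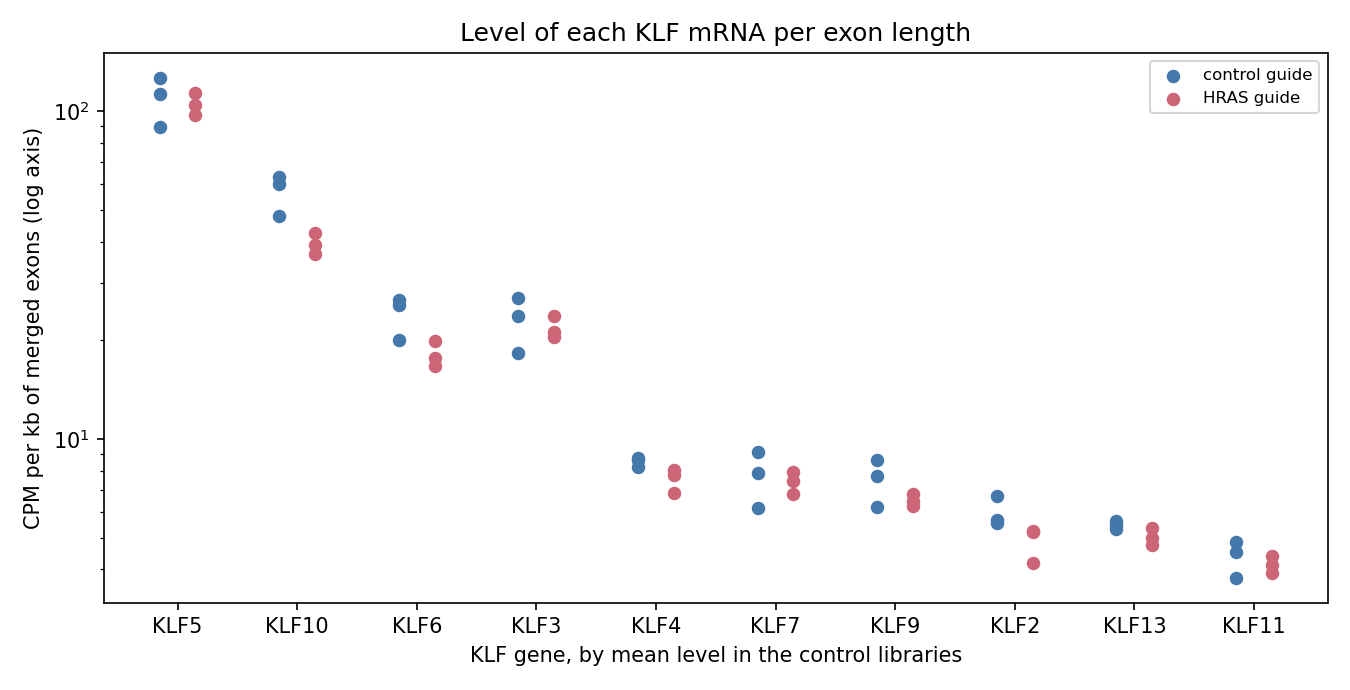
Level of each KLF mRNA in CPM per kb of merged exons (log axis), one point per library, control guide in blue and HRAS guide in red, ordered by the control mean. KLF5 is highest in every library, and KLF10 is the gene whose red points lie farthest below its blue points.

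Promoters of the inducible genes are shown because 4 of these 5 genes, KLF2, KLF4, KLF6 and KLF10, had libraries that separated by guide. KLF10 could not be printed, and KLF11, printed as a member of the set, did not separate. KLF9 is shown beside them as a gene of the other set. RefSeq (GRCh38.p14) gave upstream windows for 8 of the 10 genes; KLF3 and KLF10 had no entry. The stretches lie upstream of the RefSeq start and outside annotated exons of the gene. Capitals mark the GC box (GGGCGG), the CACCC box (CCACCC), the cAMP response element (TGACGTCA), the AP-1 element (TGACTCA or TGAGTCA), the CArG box and the MEF2 element, searched on both strands; a GC box and a CACCC box can share bases. KLF2 is read from chr19:16324576-16324816 on the plus strand, KLF4 from chr9:107489770-107490019 on the minus strand and KLF6 from chr10:3785282-3785459 on the minus strand. KLF11 is read from chr2:10043971-10044174 on the plus strand, and KLF9 from chr9:70414658-70414907 on the minus strand.
KLF2: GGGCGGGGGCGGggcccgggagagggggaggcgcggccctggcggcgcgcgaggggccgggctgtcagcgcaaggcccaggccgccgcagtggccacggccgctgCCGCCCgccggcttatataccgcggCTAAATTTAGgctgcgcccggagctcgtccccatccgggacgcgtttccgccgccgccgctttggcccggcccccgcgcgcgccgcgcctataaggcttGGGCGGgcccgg
KLF4: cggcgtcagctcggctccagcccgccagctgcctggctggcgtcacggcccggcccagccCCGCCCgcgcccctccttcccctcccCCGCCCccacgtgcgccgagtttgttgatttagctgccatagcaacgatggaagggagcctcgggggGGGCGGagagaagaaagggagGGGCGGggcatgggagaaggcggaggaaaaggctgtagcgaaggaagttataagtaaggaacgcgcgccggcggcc
KLF6: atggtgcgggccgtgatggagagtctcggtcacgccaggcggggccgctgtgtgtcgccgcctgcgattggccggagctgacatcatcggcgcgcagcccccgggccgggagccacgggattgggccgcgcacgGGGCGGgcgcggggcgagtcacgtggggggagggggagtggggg
KLF11: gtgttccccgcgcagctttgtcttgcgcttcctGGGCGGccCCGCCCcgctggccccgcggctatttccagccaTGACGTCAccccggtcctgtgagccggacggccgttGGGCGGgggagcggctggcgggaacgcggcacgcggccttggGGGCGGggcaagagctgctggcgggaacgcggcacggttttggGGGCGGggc
KLF9: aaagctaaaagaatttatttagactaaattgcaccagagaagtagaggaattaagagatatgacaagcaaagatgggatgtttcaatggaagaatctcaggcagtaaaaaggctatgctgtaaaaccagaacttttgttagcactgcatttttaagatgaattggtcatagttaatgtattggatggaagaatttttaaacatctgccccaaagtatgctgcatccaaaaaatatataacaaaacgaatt

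A GC box, the kind of site that KLF and SP proteins bind, was found within 250 bases upstream of all 4 inducible genes with an entry, and in 42.6% of all 35116 windows of this length. Among the other genes it was found for KLF5, KLF7 and KLF13 and not in the KLF9 window, so the printed KLF9 stretch does not stand for that set. Some genes have several windows. Counted by window, the GC box was in 5 of 5 windows of the inducible genes and 3 of 8 of the others. The windows of the inducible genes had a GC content of 69.2% to 80.0%. Among the others it was 70.8% to 78.8% in windows with a GC box and 32.4% to 58.0% in those without. The share over all windows was not matched for GC content. The CACCC box was found for 0 of the 4 inducible genes and for 2 of the 4 others with an entry, KLF7 and KLF13. By window this was 0 of 5 and 2 of 8, beside 31.3% of all windows. The KLF2 stretch also holds a MEF2 element, the binding site of the factors through which ERK5 is known to induce KLF2; 2.80% of all windows hold one. A cAMP response element is present in the KLF11 stretch and in 1.65% of windows. A CArG box, the site of serum response factor, was found in a KLF7 window and in 1.16% of windows, and no AP-1 element was found in any of the KLF windows (4.20% of all windows). These matches describe the letters of the windows only.

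With the HRAS guide, KLF10 mRNA was at 69.2% and KLF6 mRNA at 75.0% of the control level, the lowest of the 10. All 10 genes had negative log2 fold changes, where 50.5% of all genes tested did. KLF3, KLF5 and KLF7 were positive without control replicate 1 (0.043, 0.053 and 0.069) and with a covariate for the sign of the GC trend (0.042, 0.050 and 0.049). No KLF gene passed the threshold of 0.05 in edgeR over 19836 genes, of which 0.0101% passed. After the GC and length correction KLF10 passed and fell by 0.53 on the log2 scale. In bulk RNA, fewer cells that express a gene and less of its RNA per cell cannot be told apart.

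KLF10 (ENSG00000155090, GRCh38 chromosome 8, 102648779 to 102655902, minus strand) encodes a repressor first described as a TGF-beta inducible early gene. In control replicates 1 to 3 its level was 252, 191 and 241 CPM. The HRAS guide libraries stood at 147, 169.9 and 156 CPM, in the same order of replicates. Every HRAS guide library lay below every control library, and control replicate 2 was the lowest of the controls. The control mean was 228 ± 32.4 CPM and the HRAS guide mean 158 ± 11.4 CPM (SD, n = 3). This gave a log2 fold change of -0.53 ± 0.11 (SE; 95% interval -0.78 to -0.28). By edgeR its adjusted p was 0.515, from the 31st smallest p of all genes. After the GC and length correction the libraries stood at 229.7, 217 and 235 CPM with the control guide and 154, 161 and 158 CPM with the HRAS guide. The corrected spread within groups was smaller, 227 ± 9.29 and 158 ± 3.86 CPM (SD, n = 3). This gave -0.53 ± 0.05 on the log2 scale after correction (95% interval -0.63 to -0.42). Its adjusted p by edgeR was 0.000992, from the 7th smallest p. KLF10 was then the 1 listed KLF gene that passed, where 0.19% of 19489 genes passed as lower. It also passed in DESeq2 (adjusted p = 0.0247), where 0.134% of genes passed as lower, and in edgeR with a covariate for the sign of the GC trend (-0.43, adjusted p = 0.00325), where 0.353% did. It did not pass in limma-voom (adjusted p = 0.659), in edgeR with DESeq2 size factors (0.474), a 1 CPM filter (0.571) or library totals alone (0.820). With the correction and each library left out in turn it passed in all 6 fits, at -0.56 to -0.50, while the number of genes called in them ran from 7 (without HRAS guide replicate 3) to 131 (without control replicate 2).

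KLF6 (ENSG00000067082, chromosome 10, 3775996 to 3785281, minus strand) is known as an early response gene of tissue injury. Its levels were 163, 123 and 157 CPM with the control guide and 103, 122 and 109 CPM with the HRAS guide. The groups did not overlap, but HRAS guide replicate 2 and control replicate 2 lay within 2 CPM of each other. The log2 fold change was -0.41 ± 0.12 (95% interval -0.68 to -0.15), and the adjusted p by edgeR was 1.00. After the correction it was -0.42 ± 0.13 and the groups overlapped, with 116 CPM in control replicate 2 and 126 CPM in HRAS guide replicate 2 (adjusted p = 0.622 by edgeR). KLF6 has 7 annotated transcripts, whose median GC content of 54.6% differs from the 45.9% of the longest. With GC content and length taken from the longest transcript of each gene, chosen after seeing the data, KLF6 passed (-0.41, adjusted p = 0.00855 by edgeR), as did KLF10 (adjusted p = 0.00383), where 0.257% of genes passed as lower. With no filter on low counts both passed as well (adjusted p = 0.0489 for KLF6 and 0.000193 for KLF10 by edgeR), where 0.123% of genes did as lower. Without control replicate 2, the lowest control library for both genes, KLF6 also passed in the uncorrected fit (-0.53, adjusted p = 0.00735 by edgeR). So did KLF10 (-0.64, adjusted p = 0.000655), where 0.107% of genes passed as lower. Neither passed in any other uncorrected fit with a library left out. The smallest adjusted p there by edgeR was 0.901 for KLF6 and 0.630 for KLF10, both without control replicate 1.

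KLF2, KLF4 and KLF11 differed less. KLF2, known for keeping endothelium and T cells quiescent, was the least counted member, at 11.4, 13.5 and 11.2 CPM with the control guide and 10.6, 8.43 and 10.5 CPM with the HRAS guide. Its groups did not overlap, and the log2 fold change was -0.29 ± 0.13 with a 95% interval of -0.59 to 0.01. KLF4, known as a reprogramming factor, stood at 31.6, 30.1 and 32.0 CPM and at 25.0, 29.4 and 28.5 CPM, also without overlap. Its log2 fold change was -0.18 ± 0.10 (95% interval -0.40 to 0.05). KLF11, the closest relative of KLF10 in the list, stood at 20.7, 17.3 and 22.3 CPM and at 17.9, 20.1 and 18.9 CPM, with overlapping groups. Its log2 fold change of -0.09 ± 0.12 had a 95% interval of -0.35 to 0.18. No member of these 3 passed in edgeR (adjusted p = 1.00 each), and none passed after the correction (adjusted p = 0.735, 0.878 and 0.976).

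Among the 5 other genes the groups overlapped in each case. KLF5, a driver of epithelial proliferation, stood at 492, 349 and 440.1 CPM with the control guide and 379.5, 444 and 408 CPM with the HRAS guide. Control replicates 1 and 2 were the highest and lowest of the 6 libraries, and the log2 fold change was -0.06 ± 0.12 (95% interval -0.33 to 0.21). KLF3, a repressor that binds CtBP, and KLF7, known from neuronal growth, had log2 fold changes of -0.08 ± 0.13 and -0.07 ± 0.14. Both ranged over the same libraries as KLF5: KLF3 from 116 CPM in control replicate 2 to 169 CPM in control replicate 1, and KLF7 from 57.0 to 84.8 CPM in the same libraries. KLF3 shares 266 bases of exon with an antisense gene, KLF3-AS1, which had 597 counts in all against 24503 for KLF3. KLF13, known from T cell chemokine expression, stood at 51.3, 52.7 and 50.1 CPM and at 50.2, 44.8 and 47.0 CPM, with a log2 fold change of -0.12 ± 0.09.

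KLF9, which glucocorticoids and thyroid hormone are known to induce, had the largest difference of these 5. It stood at 44.7, 32.0 and 39.8 CPM with the control guide and at 33.4, 35.1 and 32.3 CPM with the HRAS guide. The log2 fold change was -0.21 ± 0.13 (95% interval -0.49 to 0.07). After the correction its levels were 40.3, 36.4 and 38.9 CPM against 35.0, 33.3 and 32.5 CPM, and the groups no longer overlapped. The corrected log2 fold change was -0.20 ± 0.06 with a 95% interval of -0.34 to -0.06, and it did not pass over all genes (adjusted p = 0.649 by edgeR).

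**Figure D2:**
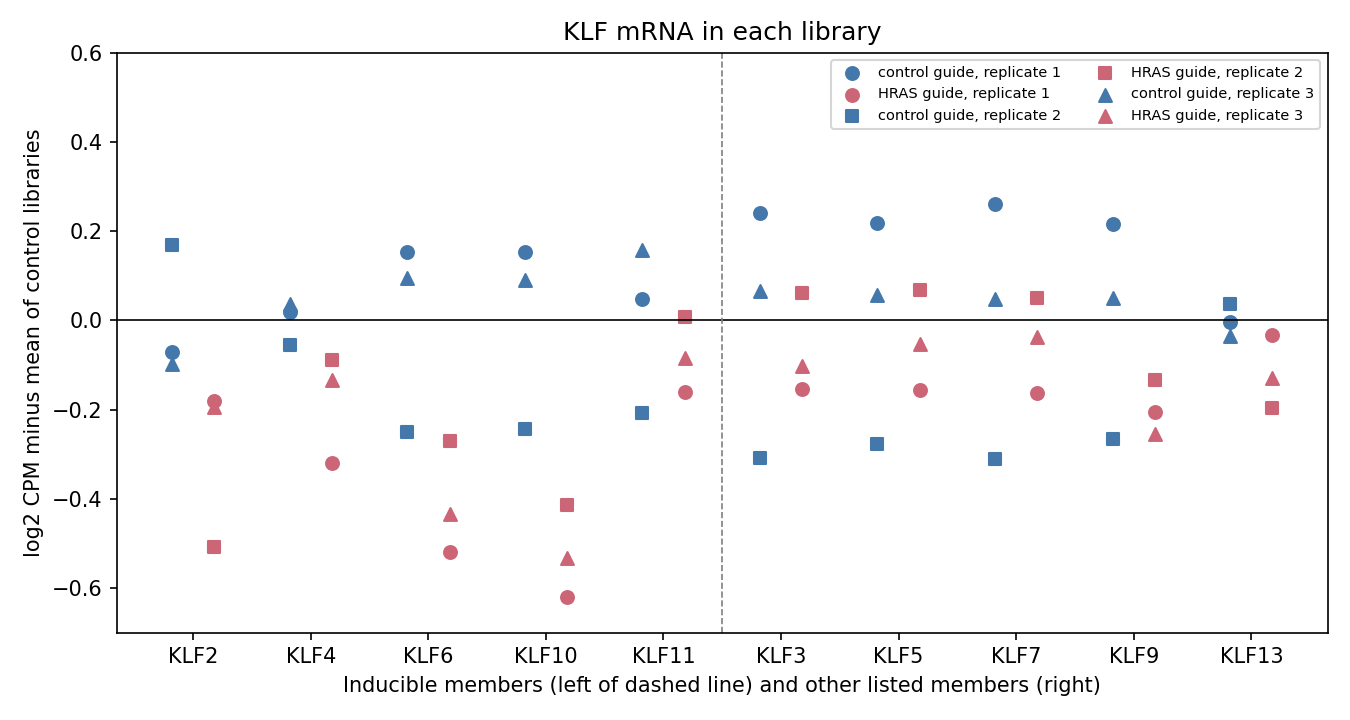
log2 CPM of each KLF gene in each library, relative to the mean of the control libraries for that gene (blue, control guide; red, HRAS guide; circle, square and triangle for replicates 1, 2 and 3). The red points of KLF2, KLF4, KLF6 and KLF10 lie below all blue points of the same gene, and control replicate 2 (blue square) is the lowest control library for 8 of the 10 genes.

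As a set, the inducible genes had a median log2 fold change of -0.29 and the other genes one of -0.08, beside -0.0014 over all genes tested. The division into sets was made with earlier results of these data known, so the contrast is a description and was not tested. The groups did not overlap for 4 of the 5 inducible genes and for 0 of the 5 others, where the HRAS guide libraries lay below the control libraries for 4% of all genes. After the GC and length correction the medians were -0.25 and -0.07. The groups then did not overlap for KLF2, KLF9 and KLF10, where this held for 6.26% of all genes. The difference between the medians varied with the libraries. Without control replicate 2 the inducible median was -0.20 and the other median -0.21, a difference of 0.0019. The inducible median was then the value of KLF2, and KLF3 (-0.22), KLF5 (-0.18), KLF7 (-0.21) and KLF9 (-0.33) were all lower than with all libraries. KLF10 and KLF6 stayed lowest in that fit. Without control replicate 1 the other median was 0.043 and the inducible median -0.33, and without HRAS guide replicate 2 the difference was -0.10. With the correction and without control replicate 2 the medians were -0.32 and -0.20.

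**Figure D3:**
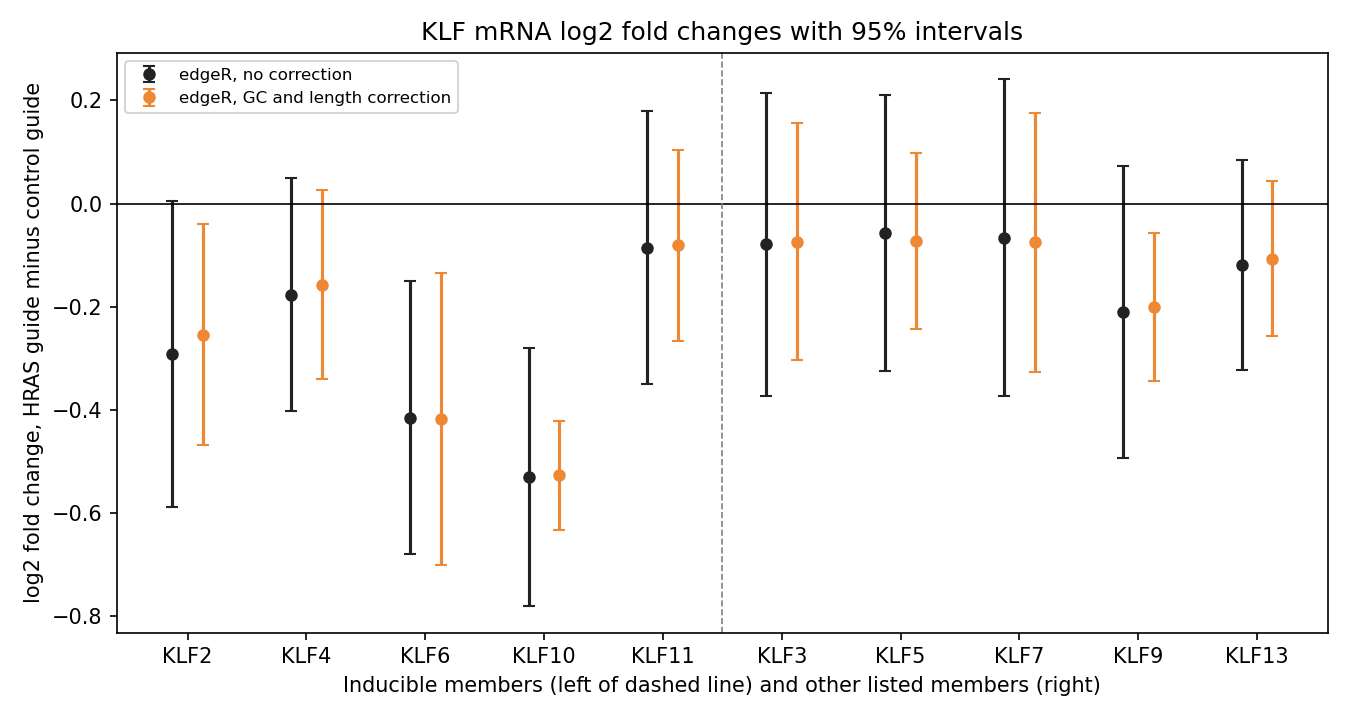
log2 fold change (HRAS guide minus control guide) of each KLF gene with its 95% interval, from edgeR without (black) and with (orange) the GC and length correction. The interval of KLF10 narrows from -0.78 to -0.28 without the correction to -0.63 to -0.42 with it, while that of KLF6 does not narrow.

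**Figure D4:**
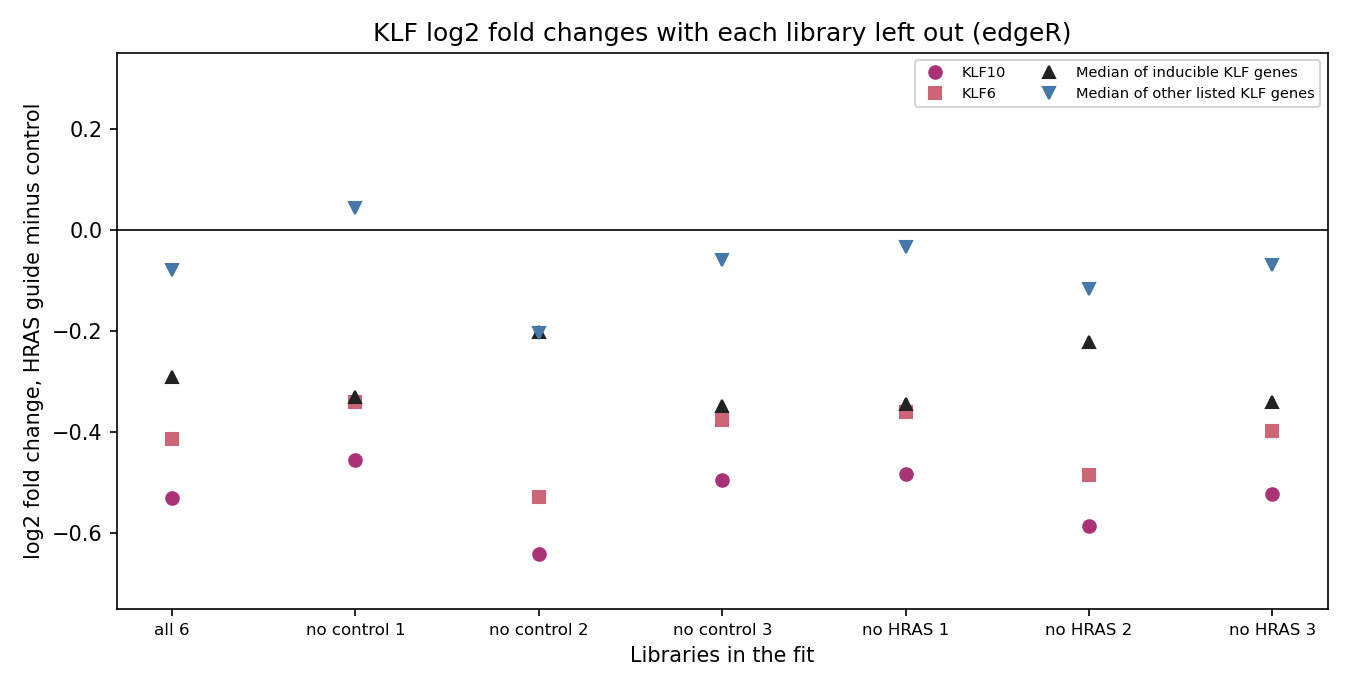
log2 fold change (y axis) of KLF10, KLF6 and the medians of the inducible and the other listed KLF genes in edgeR fits with all 6 libraries and with each library left out. KLF10 stays between -0.64 and -0.46 and KLF6 between -0.53 and -0.34, and the medians meet when control replicate 2 is left out.

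The GC content of the genes moved with the place of control replicate 2, the library with the most positive GC trend. KLF2 and KLF13, the members of highest GC content (66.8% and 57.6%), were highest in control replicate 2 among the controls. In that library the other 8 genes, at 46.2% to 54.8%, were the lowest of the controls, from -0.05 (KLF4) to -0.31 (KLF7) against the control mean on the log2 scale. The libraries were also compared within each sign of the GC trend, which leaves 1 library in an arm, so these are values with no test. The differences were negative in both sets for KLF2 (-0.42 with negative and -0.36 with positive trend), KLF4 (-0.11 and -0.17), KLF6 (-0.40 and -0.23), KLF10 (-0.54 and -0.33) and KLF13 (-0.18 and -0.12). For KLF3, KLF5, KLF7, KLF9 and KLF11 they were negative in the first set and positive in the second, at -0.07 (KLF5) to -0.27 (KLF9) and 0.036 (KLF9) to 0.21 (KLF7). After the correction the second set stood at -0.48 for KLF10, -0.15 for KLF6, -0.11 for KLF4 and KLF9, and -0.10 for KLF2. KLF3 (0.16), KLF5 (0.078), KLF7 (0.19), KLF11 (0.030) and KLF13 (0.018) were positive there. KLF9 and KLF13 thus changed sign in that set with the correction. The libraries of the second set still differed in trend, from 0.11 to 0.76.

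Ratios between KLF genes of the same library do not depend on library scaling. KLF5 was taken as the reference after its values were seen, as the most abundant member and one with a GC content (47.0%) close to that of KLF10 (46.2%) and KLF9 (46.3%). KLF10 had 51.2, 54.7 and 54.7 counts per 100 KLF5 counts with the control guide and 38.8, 38.3 and 38.3 with the HRAS guide. KLF6 had 33.2, 35.4 and 35.7 against 27.0, 27.5 and 26.6. Both ratios separated the groups, and the HRAS guide libraries spread over less than 1 count per 100. KLF9 also separated, at 9.09, 9.16 and 9.05 against 8.79, 7.91 and 7.91. KLF3 (34.3, 33.1 and 34.0 against 33.9, 33.6 and 32.7) and KLF7 (17.2, 16.3 and 16.6 against 16.6, 16.5 and 16.9) stayed within narrow, overlapping ranges. The ratios of KLF2, KLF4, KLF11 and KLF13 overlapped too (exact permutation p = 0.6, 0.4, 0.7 and 0.7, two-sided). KLF2 and KLF4, whose CPM separated the groups, thus did not separate them as ratios to KLF5. The ratio to KLF5 was below the controls in all HRAS guide libraries for 1.56% of all genes tested. The exact permutation test gave p = 0.1, two-sided, for KLF10, KLF6 and KLF9, the smallest that 3 against 3 libraries allow. KLF6 had 64.9, 64.6 and 65.1 counts per 100 KLF10 counts with the control guide and 69.6, 71.7 and 69.5 with the HRAS guide, again without overlap (exact permutation p = 0.1, two-sided). These ratios carry no GC correction. With the correction and all libraries, KLF6 stood at -0.42 and KLF10 at -0.53 on the log2 scale. With the correction and without control replicate 2, KLF6 stood at -0.57 and KLF10 at -0.56. In each other corrected fit with a library left out KLF10 was lower than KLF6. A ratio shows unequal change and does not show that KLF5 itself was unchanged.

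**Figure D5:**
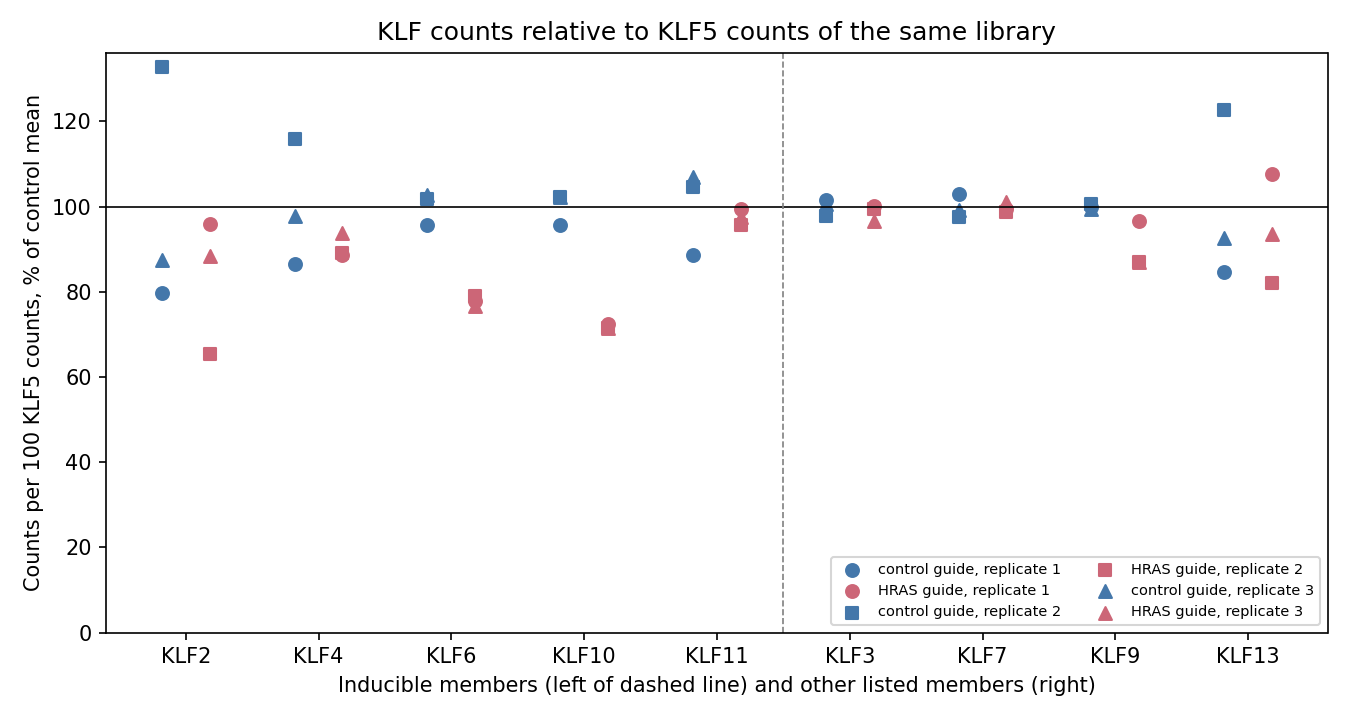
Counts of each KLF gene per 100 KLF5 counts of the same library, as a percent of the mean of the control libraries (blue, control guide; red, HRAS guide; symbols mark replicates 1 to 3). KLF10 and KLF6 lie at about 72% and 78% of the control mean in the HRAS guide libraries, KLF3 and KLF7 near 100%, and KLF2 and KLF13 spread widely in both groups.

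The genes whose library pattern lay closest to these 2 members, among 11933 genes of at least 5 CPM, included each other. KLF6 was the nearest gene to KLF10, at a Euclidean distance of 0.15 in centred log2 CPM over 6 libraries, followed by BHLHE40 (0.27), a repressor gene of the circadian and hypoxia responses, and DUSP6 (0.28), an ERK phosphatase gene. KLF10 was the nearest to KLF6, followed by HAS2 (0.16), a hyaluronan synthase gene, and SERPINB2 (0.17), which encodes a plasminogen activator inhibitor. These genes share the 6 libraries and their GC trend with the KLF genes. They were picked for a pattern like that of KLF10 or KLF6, so lower levels with the HRAS guide follow from the choice. BHLHE40 had a log2 fold change of -0.40 ± 0.08 and DUSP6 one of -0.32 ± 0.09, neither past the threshold in edgeR (adjusted p = 0.448 and 1.00). Without control replicate 2 both passed (adjusted p = 0.0141 and 0.0407 by edgeR), where 0.107% of genes passed as lower. Neither passed in any other uncorrected fit with a library left out. The smallest adjusted p there by edgeR was 0.563 for BHLHE40 and 0.901 for DUSP6, both without control replicate 1. With the GC and length correction BHLHE40 passed (0.0162), where 0.19% of genes passed as lower, and DUSP6 did not (0.202). DESeq2 gave adjusted p of 0.0495 and 0.789, where 0.134% of genes passed as lower. HAS2 (-0.29 ± 0.13) and SERPINB2 (-0.30 ± 0.13) did not pass in edgeR with all libraries. Without control replicate 2 their adjusted p by edgeR was 0.209 and 0.0966, and after the correction 0.214 and 0.268.

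The rest of the family and its partners were described from lists of known members. Of the 4 tested other KLF genes 2 had positive and 2 had negative values (median -0.02), and none passed. KLF12 (-0.14 ± 0.22) and KLF15 (0.17 ± 0.27) had the smallest p there. Of 8 tested SP genes, close relatives that bind the same GC boxes, 3 were positive and 5 negative (median -0.03). SP9 (1.20 ± 0.62) and SP5 (0.48 ± 0.30), both below 2 CPM, had the smallest p. SP1 and SP3, the abundant SP members, stood at -0.02 ± 0.10 and -0.04 ± 0.16. No gene of either list passed, before or after the correction.

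The corepressors and coactivators of KLF proteins had 8 of 10 negative values with a median of -0.05, led by CREBBP, a histone acetyltransferase gene (-0.14 ± 0.08), and SIN3B (-0.11 ± 0.10). Among 5 ubiquitin ligases known to act on KLF proteins, BTRC stood at -0.21 ± 0.12 and VHL at 0.09 ± 0.07, with a list median of 0.02. The ERK5 and MEF2 genes upstream of KLF2 and KLF4 had 4 of 6 negative values (median -0.07), with MEF2D at -0.11 ± 0.10 and MAP2K5, the ERK5 kinase gene, at -0.12 ± 0.11. The TGF-beta axis around KLF10 and KLF11 had 6 of 8 negative values (median -0.05), with SMAD7, an inhibitor of TGF-beta signalling, at -0.17 ± 0.10 and TGFBR1 at 0.11 ± 0.12. None of these genes passed, with or without the correction.

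Of 13 genes reported as KLF targets, 11 were tested, 8 of them negative, with a median of -0.03. ATF3, a stress-induced transcription factor gene, stood at 53.2, 54.5 and 52.7 CPM with the control guide and at 35.0, 32.4 and 34.2 CPM with the HRAS guide. Its log2 fold change was -0.66 ± 0.09, with an adjusted p of 0.0981 by edgeR, and it passed after the correction (-0.67 ± 0.06, adjusted p = 0.000748). CDKN1A, which encodes the cell cycle inhibitor p21, stood at 218, 254 and 228 CPM against 210.2, 201 and 199 CPM, a log2 fold change of -0.20 ± 0.08 that did not pass. ATF3 was the 1 target gene called after the correction, where 0.19% of all genes passed as lower, and edgeR called none without it. ATF3 was also called in DESeq2 (adjusted p = 3.72e-06) and in edgeR with no filter on low counts (9.38e-05), with the GC trend covariate (0.000206) or without control replicate 2 (0.00211). It was not called in edgeR with a 1 CPM filter (0.0944), DESeq2 size factors (0.0964) or library totals alone (0.112), nor by limma-voom. Without the correction it was also not called with a term for replicate number, or with any library other than control replicate 2 left out. The smallest adjusted p of those fits by edgeR was 0.112, without control replicate 1.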

How the data were processed

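RNA sequencing counts of 6 libraries of the line 5637 were analysed, 3 per guide. As deposited by the authors, the table holds raw read counts for Ensembl genes, without normalization. HISAT2, StringTie, DESeq2 and hg38 are named in the submitters' processing notes; which tool counted, with which annotation and strand setting, is not given in the sources used here. Of 60664 rows 1 had no values. Symbols matched 60462 identifiers. Gene positions, exon lengths and base composition were taken from GENCODE release 29 (GRCh38, the assembly of hg38). filterByExpr left 19836 genes, scaled by TMM. The guides were compared with edgeR 4.0.16 in R 4.3.3 (quasi-likelihood F-test, two-sided, guide as the single term), and p-values were adjusted by Benjamini and Hochberg over all genes; SE and 95% intervals come from the F statistic. For the correction, natural splines of the median GC content (5 degrees of freedom) and of log10 length (4) over a gene's transcripts were fitted per library to log2 CPM with a prior count of 2, on genes above a mean of 1, and entered edgeR as offsets for 19489 genes. DESeq2 1.42.0 and limma 3.58.1 served as alternatives. CPM per kb divides by merged exon length. Named were all 10 KLF genes, HRAS, FTO, per list the genes past the threshold or up to 2 of smallest p, and the 3 nearest genes to the 2 members of smallest p; other genes named were chosen after their values were seen. The KLF genes, their division and the lists were chosen with earlier results of these data known.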

Additional observations from a re-analysis of the deposited data

How the results depend on the processing

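The number of genes called, 2 in the fit reported, was 39 with the GC and length correction, 51 with it by longest transcript, 6 with it and a replicate block, 81 with a covariate for the sign of the GC trend, 57 without a filter, 28 in DESeq2, and 1 each with DESeq2 size factors, a 1 CPM filter, limma-voom or the replicate block. Of the KLF genes, 0 in the fit reported, 1 was called with the correction, the covariate or DESeq2, and 2 by longest transcript or without a filter. Of the genes of the other lists 1 (ATF3) was called in each of these 5 fits and with the correction and replicate block, in place of 0. The inducible minus other median was -0.35 with the covariate, against -0.21. With the covariate KLF3 (0.042), KLF5 (0.050), KLF7 (0.049) and KLF12 (0.080) became positive and HRAS negative (-0.091); the cause was not tested. With each library left out, 1 to 24 genes, 0 to 2 KLF genes and 0 to 1 list genes were called; with the correction as well, 7 to 131 genes and 1 to 2 KLF genes were. Without the correction and with each library left out, the inducible median ran from -0.35 to -0.20 and the other median from -0.21 to 0.043. Their difference ran from -0.38 to 0.0019. In the same fits KLF3 ran from -0.22 to 0.043, KLF5 from -0.18 to 0.053, KLF7 from -0.21 to 0.069 and KLF12 from -0.35 to 0.054. KLF15 ran from -0.090 to 0.38, TGFBR1 from -0.0028 to 0.18 and HRAS from -0.13 to 0.22. All 5 inducible genes stayed negative in every fit. Replicate numbers are shared by name only: deviations of same-numbered libraries correlated at -0.54, -0.66 and -0.14. With the replicate block KLF10 stood at -0.52 and KLF6 at -0.41, neither called, and with the correction added KLF10 had an adjusted p of 0.0678 by edgeR. KLF10 was called in 5 of 11 alternatives, with adjusted p from 0.000193 to 1.00. The covariate, the longest transcript and the corrected fits with a library left out were chosen after seeing the data. Depth limits KLF2 most, the member of fewest counts.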
